A study of Mus musculus with 14 samples.

Results

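Muscle and skeleton of the limb come from cells of different origin that share the same early bud. The S9-SCA-1+ cells of mouse forelimb buds, which carry the transcripts of muscle precursors, are set here against the S9+Pαhi osteo-chondrogenic progenitors (OCPs) of the same stage, over all expressed genes and in both directions. The members are the 5 libraries of these 2 populations, chosen by their labels out of 14 libraries of 5 populations. They are replicates 2 and 3 of S9-SCA-1+ cells and replicates 1, 2 and 3 of OCPs. Both populations were sorted by FACS at E10.5 from Sox9-IRES-EGFP embryos, in which EGFP reports Sox9 transcription (S9), so that the reporter allele was common to both, and no treatment is named for either. Dead cells and cells with the surface antigens CD31, Ter119, CD45, EpCam, Gr1 or CD11b were gated out first. OCPs were then gated as Sox9-positive cells with high PDGFRα. S9-SCA-1+ cells were gated as Sox9-negative, JAG1-negative and SCA-1-positive cells, and in the study's text they come from the PDGFRα-positive part of the Sox9-negative cells, a gate that their label does not name. Each library held poly(A)+ RNA of cells pooled from many forelimb buds. The reporter line was held on a mixed Swiss Albino background, and the pools cannot be traced to single embryos.

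Muscle precursors of the limb leave the edge of the dermomyotome of the somites and migrate as single cells into the bud. They depend on the transcription factors PAX3 and LBX1 and on the receptor MET, whose ligand HGF is made by the mesenchyme. The skeleton forms in place, when lateral plate mesenchyme condenses in the core of the bud and SOX9 switches on cartilage genes such as Col2a1. Migrating precursors and mesenchyme exchange signals, and each has its own adhesion molecules and matrix.

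The labels of S9-SCA-1+ cells name the sort gates and no lineage. The study proposed their myogenic identity from transcripts in these same libraries, Pax3 and Myf5 among them. Sox9, Pdgfra, Jag1 and the SCA-1 gene Ly6a were part of the gates, so their levels describe the sort and are no result. Sox9 was at 14.7 and 7.41 CPM in S9-SCA-1+ cells and 434, 432 and 445 CPM in OCPs (CPM, counts per 1000000 of the scaled library total). Pdgfra was at 44.8 and 24.00 CPM in S9-SCA-1+ cells and 667, 746 and 743 CPM in OCPs. Ly6a was low even in the population sorted for its protein, at 3.36 and 3.10 CPM in S9-SCA-1+ cells and 0.406, 0.0475 and 0.289 CPM in OCPs. Jag1, whose protein was a gate against S9-SCA-1+ cells only, was at 16.2 and 15.99 CPM in S9-SCA-1+ cells and 16.9, 20.9 and 21.3 CPM in OCPs. Pax3, Myf5 and Col2a1, which no gate used, separated the populations too. Muscle genes such as Pax3 and Myf5 are no independent check of that identity. Pax3 was at 428 and 498 CPM in S9-SCA-1+ cells and 0.689, 1.19 and 0.362 CPM in OCPs. Myf5, an early muscle determination factor, was at 61.6 and 75.3 CPM in S9-SCA-1+ cells and 0.0406, 0.190 and 0.217 CPM in OCPs. Col2a1, the main collagen gene of cartilage, was at 168 and 159 CPM in S9-SCA-1+ cells and 695, 1228 and 1045 CPM in OCPs, so its transcripts were present in both populations. Pax3, Myf5, Myod1, Myog, Lbx1, Met, Eya2 and Pax7 were summed as 8 muscle precursor markers, which gave 1644 and 1647 CPM in S9-SCA-1+ cells and 9.26 to 9.65 CPM in OCPs.

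**Figure D1:**
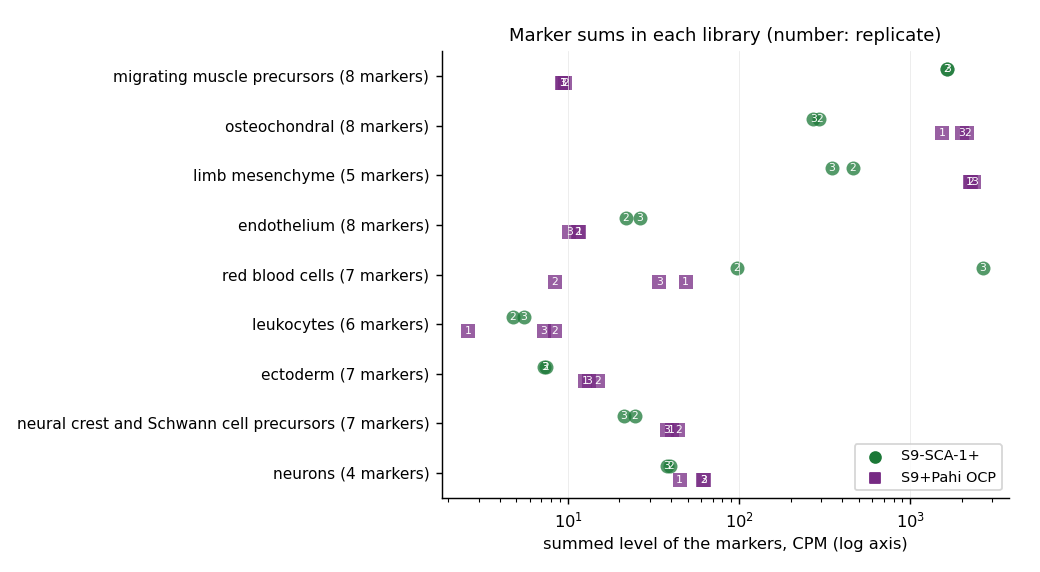
Summed level of each marker list in each library, in CPM on a log axis, with the number of markers in brackets. Green circles are S9-SCA-1+ libraries and purple squares OCP libraries, numbered by replicate. The osteochondral list includes Sox9 and the limb mesenchyme list Pdgfra, which were part of the gates. The 8 muscle precursor markers sum to 1644 and 1647 CPM in S9-SCA-1+ cells, and the red blood cell markers stand at 2667 CPM in S9-SCA-1+ replicate 3 only.

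Depth was 28601515 and 29162751 counts in the S9-SCA-1+ libraries and 20316583 to 27404749 in OCPs, and 3 counts correspond to 0.105 to 0.143 CPM in these 5 libraries. Red blood cell transcripts marked out 1 library. The 7 red blood cell markers summed to 2667 CPM in S9-SCA-1+ replicate 3, 96.9 CPM in replicate 2 and 8.41 to 48.7 CPM in OCPs, although Ter119-positive cells had been gated out. The test called all 7 higher in S9-SCA-1+ cells (calls are defined with the counts of all genes) and 0 of the 7, by edgeR, when replicate 3 was left out, so globin genes are not described further. In OCPs, replicate 2 lay furthest from the others. Its counts differed from those of replicates 1 and 3 with chi-square values, divided by the degrees of freedom, of 76.3 and 40, against 20.3 between replicates 1 and 3 and 17.6 between the S9-SCA-1+ libraries. Endothelial markers summed to 21.8 and 26.3 CPM in S9-SCA-1+ cells and 10.2 to 11.6 CPM in OCPs. Of 7 tested, Kdr and Tek alone were called, both higher in S9-SCA-1+ cells. Only 3 of the 8 markers had both S9-SCA-1+ libraries above all OCP libraries, and the others overlapped. Pecam1, the gene of CD31, was at 0.245 and 0.463 CPM in S9-SCA-1+ cells and 0.608, 0.998 and 0.434 CPM in OCPs. Leukocyte markers summed to 2.60 to 8.41 CPM over the 5 libraries. The sums of the other lists were higher in OCPs without overlap. Ectoderm markers summed to 7.26 and 7.45 CPM in S9-SCA-1+ cells against 12.6 to 14.9 CPM. Neural crest markers summed to 21.2 and 24.6 against 38.0 to 44.2 CPM, and neuron markers to 37.9 and 39.6 against 44.9 to 62.4 CPM. Single members did not all follow these sums. In the ectoderm list, 2 calls favoured S9-SCA-1+ cells (Trp63 and Fgf8) and 1 favoured OCPs. The neuron list had 1 call in each direction. Of single markers, Sox10, of neural crest, was called higher in OCPs, at 0 and 0.178 against 1.87, 3.99 and 3.07 CPM. The ectoderm gene Trp63 was at 0.979 and 1.03 against 0.162, 0.570 and 0.289 CPM (log2 fold change 1.58 ± 0.54), a call lost without either S9-SCA-1+ library (adjusted p = 0.104 and 0.131). The part of such cells in the results was not tested.

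Mesenchymal transcripts were present in S9-SCA-1+ libraries at a lower level. The 5 limb mesenchyme markers summed to 464 and 349 CPM in S9-SCA-1+ replicates 2 and 3 and to 2226 to 2374 CPM in OCPs. Pdgfra, whose protein was a gate, is 1 of the 5, at 44.8 and 24.00 against 667, 746 and 743 CPM. That part of the sums describes the sort and is no result. For each of the 5, all OCP libraries lay above both S9-SCA-1+ libraries. Of 33 limb mesenchyme factors called higher in OCPs, 26 were higher in S9-SCA-1+ replicate 2 than in replicate 3, with a median ratio of 1.19. The genes called higher in OCPs as a whole were close to this, since 412 of the 555 with over 1 CPM in both S9-SCA-1+ libraries were higher in replicate 2, with a median ratio of 1.12. The part of mesenchymal cells among the S9-SCA-1+ cells in the results was not tested. In sorted bulk samples, fewer cells with a transcript and less transcript in each cell cannot be told apart.

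Most expressed genes differed little, and a minority differed by a great deal in both directions. Of 15125 genes tested with edgeR's quasi-likelihood test, 1930 (12.8%) were called. A called gene passed a Benjamini-Hochberg adjusted p of 0.1 and differed by 1.2 or more on the log2 scale in either direction. Of these, 716 (4.73% of the tested genes) were higher in S9-SCA-1+ cells and 1214 (8.03%) were higher in OCPs. The libraries of the populations did not overlap in 1897 of the 1930, and in 8458 of all tested genes (55.9%). Differences of 5 or more on the log2 scale were found for 85 genes higher in S9-SCA-1+ cells and 66 higher in OCPs, whereas 321 and 590 lay between 1.2 and 2. The median log2 fold change of all tested genes was -0.03. With no limit on the fold change, 7087 genes (46.9%) passed the adjusted p, 3359 higher in S9-SCA-1+ cells and 3728 in OCPs. Genes called higher in S9-SCA-1+ cells took 2.0% (replicate 2) and 2.4% (replicate 3) of all counts of S9-SCA-1+ libraries and 0.457% to 0.485% of those of OCPs. The red blood cell genes set aside above are included in these shares. Genes called higher in OCPs took 4.55% to 5.59% of all counts of OCP libraries and 1.26% and 1.09% of those of S9-SCA-1+ cells. Many were close to absent on one side. The mean of the lower population was under 1 CPM for 416 of the 716 and for 633 of the 1214. Counting on strand was not stated, so reads of a gene and of an antisense partner cannot be told apart. Among the called genes named below, more than 10% of the exon bases lie under a gene of the other strand in Bdnf, Dll1, Gdf5, Hand2, Hoxa11, Msc, Notum, Nrarp, Pdgfa, Rarb, Rspo3, Sfrp2, Shh, Sned1, Spry1, Tbx18 and Wnt11, the most in Nrarp (79.4%).

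**Figure D2:**
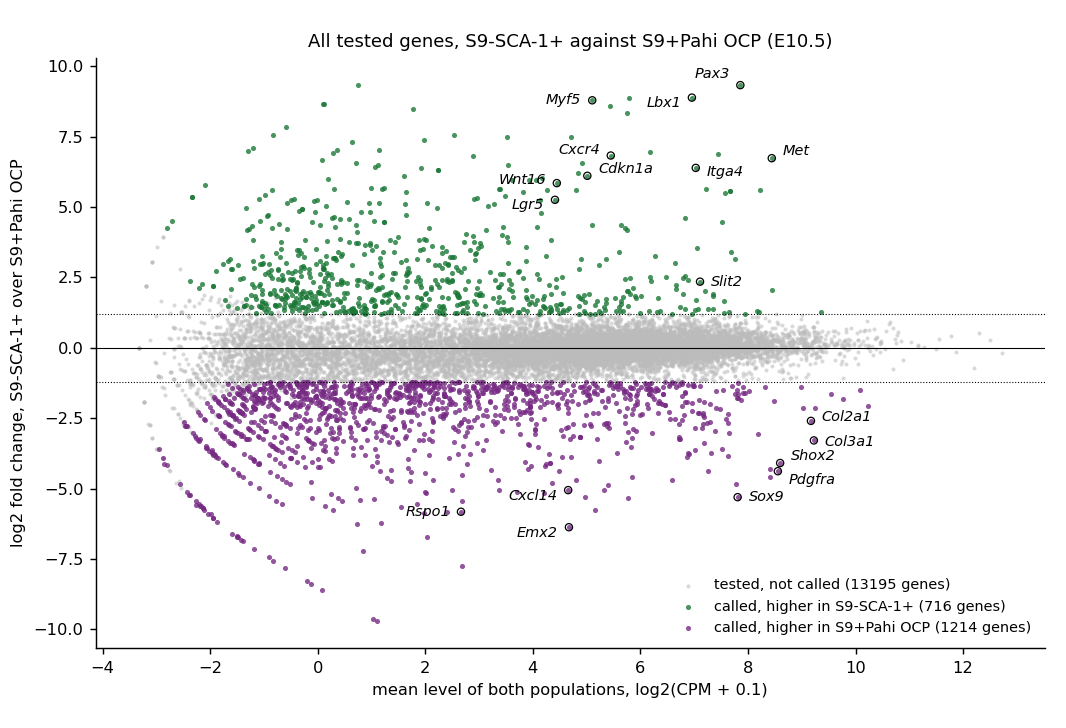
Log2 fold change (S9-SCA-1+ over OCP) of every tested gene against its mean level in both populations, log2(CPM + 0.1). Green and purple points are called genes, grey points are not called, and dotted lines mark the fold limit of 1.2 on the log2 scale. Pax3, Lbx1 and Myf5 lie highest on the side of S9-SCA-1+ cells among the genes labelled, and Emx2 and Rspo1 lowest. Fitted values of genes with up to 3 counts in one population depend on the prior count.

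The largest differences in favour of S9-SCA-1+ cells were, above all, those of transcription factors of migrating muscle precursors. Pax3 (chr1:78101267-78197136, build GRCm38) differed by 9.33 ± 0.40 on the log2 scale (± SE in all that follows, 2 against 3 libraries), with an adjusted p of 1.5e-09. Lbx1 (chr19:45232684-45236841), a homeobox gene needed for migration into the limb, was at 263 and 233 against 0.649, 0.570 and 0.362 CPM (log2 fold change 8.88 ± 0.17, adjusted p = 4.3e-13). Myf5 differed by 8.79 ± 0.36. Eya1, a transcriptional co-activator, was at 341 and 344 against 3.24, 3.09 and 2.42 CPM (log2 fold change 6.88 ± 0.36). Its relative Eya2 was at 140.4 and 147 against 1.01, 0.951 and 1.48 CPM (log2 fold change 6.94 ± 0.20). Sp5, a zinc finger gene that responds to WNT signalling, was at 84.6 and 87.2 against 0.203, 0.380 and 0.108 CPM (log2 fold change 8.58 ± 0.54). Musculin (Msc), a bHLH repressor of the myogenic lineage, was at 50.3 and 53.3 against 0.446, 0.0951 and 0.289 CPM (log2 fold change 7.48 ± 0.67). Pax7, a marker of later muscle stem cells, had up to 1 count in any OCP library and 6.55 and 6.71 CPM in S9-SCA-1+ cells. Pitx3 had up to 2 counts in any OCP library and 7.01 and 8.25 CPM in S9-SCA-1+ cells. In each of these genes the S9-SCA-1+ libraries lay close together and far above every OCP library, and the largest adjusted p was 1.3e-06. Per kilobase of transcript, the mean level in S9-SCA-1+ cells was 287 RPKM (CPM per kilobase) for Lbx1, 119.7 RPKM for Pax3, 104 RPKM for Met and 32.9 RPKM for Myf5.

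The other genes among the 15 largest were structural or belonged to the cell surface. Mybpc1, a myosin binding protein of slow skeletal muscle, was already at 111 and 110.2 against 0.0811, 0.475 and 0.181 CPM (log2 fold change 8.86 ± 0.35, 9.64 without OCP replicate 2). Adamts16, a secreted metalloprotease, was at 111 and 103 against 0.406, 0.238 and 0.325 CPM (log2 fold change 8.33 ± 0.28). Tacr3, the receptor of neurokinin B, was at 11.2 and 11.6 against 0, 0.190 and 0 CPM. Gabra2, a subunit of the GABA-A receptor, was at 19.2 and 25.9 against 0.203, 0 and 0.145 CPM (log2 fold change 7.47 ± 0.45). Rtn4rl2, related to the Nogo receptor, was at 15.3 and 13.5 against 0, 0.190 and 0.181 CPM (log2 fold change 6.82 ± 0.46). Cxcr4, the last of the 15, is described with its ligand. OCP libraries held at most 0.475 CPM of any of these 5.

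Myogenic bHLH factors such as MYF5 bind E-boxes, and the E-box CAGCTG is one of their preferred forms. It reads the same on both strands, so 1 search covers both. Promoters were taken from RefSeq (build GRCm38.p6). Of the 15 genes with the largest differences on the side of S9-SCA-1+ cells, 9 had an entry, and in 3 of these CAGCTG occurred within 250 bases upstream of the start site. On the side of OCPs 9 of the 15 had an entry and 2 held the motif. The motif was found in 13.0% of the 32851 upstream windows of 250 bases of all genes, in 18.4% of 686 windows of genes called higher in S9-SCA-1+ cells, in 13.9% of 1179 of genes called higher in OCPs and in 11.9% of 13044 of genes tested and not called. A match is a description of these letters, not a bound site. The upstream windows of the 3 genes, and of the receptor genes Itga4 and Gfra1, picked after the search because they held a match, are given 5′ to 3′ on the strand of the gene with CAGCTG in capitals. They lie at chr10:88605153-88605402 (Mybpc1, minus strand), chr19:46148326-46148575 (Pitx3, minus), chr3:134828757-134829006 (Tacr3, plus), chr2:79255176-79255425 (Itga4, plus) and chr19:58455399-58455648 (Gfra1, minus).
Mybpc1: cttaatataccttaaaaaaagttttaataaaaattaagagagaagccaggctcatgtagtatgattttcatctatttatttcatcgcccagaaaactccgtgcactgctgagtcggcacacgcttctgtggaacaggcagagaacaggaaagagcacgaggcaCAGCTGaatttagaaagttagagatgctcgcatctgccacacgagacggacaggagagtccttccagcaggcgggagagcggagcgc
Pitx3: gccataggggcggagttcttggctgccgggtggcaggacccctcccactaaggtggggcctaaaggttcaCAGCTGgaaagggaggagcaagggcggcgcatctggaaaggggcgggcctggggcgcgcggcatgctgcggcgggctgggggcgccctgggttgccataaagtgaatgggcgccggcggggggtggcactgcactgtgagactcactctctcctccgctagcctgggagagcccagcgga
Tacr3: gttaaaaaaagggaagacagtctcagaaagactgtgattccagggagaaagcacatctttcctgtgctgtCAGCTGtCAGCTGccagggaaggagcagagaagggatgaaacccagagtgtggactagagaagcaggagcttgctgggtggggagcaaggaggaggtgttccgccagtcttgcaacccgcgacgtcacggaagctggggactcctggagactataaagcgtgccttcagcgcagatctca
Itga4: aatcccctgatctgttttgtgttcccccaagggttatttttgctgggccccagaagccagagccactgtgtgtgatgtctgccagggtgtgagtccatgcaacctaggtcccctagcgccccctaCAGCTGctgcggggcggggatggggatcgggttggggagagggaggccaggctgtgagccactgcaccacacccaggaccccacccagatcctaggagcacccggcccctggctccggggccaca
Gfra1: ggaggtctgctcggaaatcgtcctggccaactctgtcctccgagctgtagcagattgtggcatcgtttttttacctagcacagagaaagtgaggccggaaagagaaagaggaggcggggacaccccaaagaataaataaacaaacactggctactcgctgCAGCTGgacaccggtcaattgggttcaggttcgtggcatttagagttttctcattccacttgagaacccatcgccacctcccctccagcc
The motif begins 87 bases before the start site in Mybpc1, 90 bases before it in Gfra1, 125 in Itga4 and 180 in Pitx3. Tacr3 has 2 copies, the first of them 180 bases upstream.

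In the opposite direction, the largest differences were those of patterning factors and of secreted and surface proteins of mesenchyme. Emx2 (chr19:59458690-59465357), a homeobox gene required for the shoulder blade, was at 0.595 and 0.605 against 48.8, 51.1 and 50.6 CPM (log2 fold change -6.37 ± 0.50, adjusted p = 3.5e-07). Its antisense partner Emx2os followed at 0.0699 and 0.178 against 5.80, 8.51 and 8.39 CPM, and 9.05% of the exon bases of Emx2 lie under it. Gsc (chr12:104471209-104473236), the goosecoid homeobox gene, was at 1.26 and 1.32 against 64.4, 81.96 and 62.9 CPM (log2 fold change -5.75 ± 0.32). Hoxc5 was at 0.839 and 1.175 against 28.7, 35.7 and 43.2 CPM (log2 fold change -5.15 ± 0.87). Ebf2, a factor of connective tissue and fat lineages, was at 1.61 and 1.46 against 47.4, 75.2 and 59.99 CPM (log2 fold change -5.30 ± 0.39). The S9-SCA-1+ libraries held at most 1.61 CPM of each of these genes and OCPs at least 28.7 CPM of each but Emx2os. Sox9 itself, as the gate set it, differed by -5.31 ± 0.26.

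Rspo1, which amplifies WNT signals, was at 0.210 and 0.214 against 11.6, 11.8 and 13.3 CPM (log2 fold change -5.82 ± 1.11). Ntrk2, the receptor of the neurotrophin BDNF, was at 0.350 and 0.214 against 9.90, 13.2 and 14.2 CPM (log2 fold change -5.44 ± 0.47). Sned1, a matrix glycoprotein, was at 3.46 and 1.82 against 50.4, 177 and 92.7 CPM (log2 fold change -5.33 ± 0.52). Cavin2, a coat protein of caveolae, was at 0.0699 and 0.214 against 5.15, 9.03 and 6.33 CPM (log2 fold change -5.54 ± 0.66, -6.51 without S9-SCA-1+ replicate 3). Rag1, known as a recombinase of lymphocytes, was low but separate, at 0.315 and 0.107 against 7.02, 7.32 and 8.79 CPM (log2 fold change -5.16 ± 0.55, -6.11 without S9-SCA-1+ replicate 2), while the leukocyte marker Tyrobp had no count in any of the 5 libraries. Dipk1c was at 0.315 and 0.0356 against 9.33, 8.94 and 12.4 CPM. Shisa7, which encodes an auxiliary subunit of neurotransmitter receptors, had up to 2 counts in any S9-SCA-1+ library and 7.79, 20.9 and 9.15 CPM in OCPs. Calb2 (calretinin) had up to 3 counts there and 3.69, 9.37 and 10.6 CPM in OCPs, and Mgat4c, a glycosyltransferase, had up to 3 counts and 2.47, 9.37 and 4.88 CPM. OCP replicate 2 was the highest library for Sned1, Shisa7, Mgat4c and Cavin2. The largest adjusted p of these genes was 0.00096.

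Transcription factors of muscle precursors were higher in S9-SCA-1+ cells in most cases. Of 28 tested, 18 were called as higher in S9-SCA-1+ cells and 1 higher in OCPs, against 4.73% and 8.03% of all tested genes. The median log2 fold change was 3.06. These shares over all tested genes are the background of each list count that follows. Myod1, which acts later than Myf5, was at 22.03 and 23.4 against 0.162, 0.428 and 0.181 CPM (log2 fold change 6.49 ± 0.42). Myog, which acts during differentiation, was at 3.50 and 4.66 against 0.122, 0.143 and 0.0723 CPM (log2 fold change 5.16 ± 0.44). The exception was Foxc1, a forkhead gene of somitic and skeletal progenitors, at 3.15 and 2.46 against 52.9, 111 and 81.1 CPM (log2 fold change -4.86 ± 0.39, adjusted p = 3.9e-07). Not all myogenic factors reached the fold limit. Meox2 was at 182 and 208 against 68.9, 92.3 and 98.5 CPM and Dach1 at 166 and 149 against 76.4, 76.2 and 76.6 CPM, with the libraries of the populations apart in both. Meox2 passed the limit without S9-SCA-1+ replicate 2 (1.27), OCP replicate 2 (1.22) or OCP replicate 3 (1.29). Mef2a, at 53.8 and 58.4 against 46.4, 82.01 and 66.4 CPM, overlapped.

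Early muscle proteins gave 6 called higher in S9-SCA-1+ cells and 1 higher in OCPs of 12 (2 without OCP replicate 2). Cdh15, the M-cadherin of muscle cells, was at 33.1 and 34.9 against 0.973, 0.951 and 0.759 CPM (log2 fold change 5.25 ± 0.29). Rbm24, an RNA-binding protein of muscle, was at 18.4 and 22.8 against 2.55, 2.76 and 2.39 CPM (log2 fold change 3.005 ± 0.19). Megf10, a receptor of muscle progenitors, was at 11.3 and 11.54 against 1.34, 3.19 and 2.17 CPM (log2 fold change 2.36 ± 0.30). Vgll2, a co-factor of TEAD proteins in muscle, had up to 2 counts in any OCP library and 3.53 and 4.37 CPM in S9-SCA-1+ cells. Subunits of the acetylcholine receptor went both ways. Chrnd had up to 3 counts in any OCP library and 1.96 and 2.53 CPM in S9-SCA-1+ cells, whereas Chrna1 was at 0.245 and 0.534 against 2.23, 0.951 and 1.37 CPM (log2 fold change -1.96 ± 0.42, -2.62 without S9-SCA-1+ replicate 3).

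Contractile proteins were split. Of 24 tested, 9 were called as higher in S9-SCA-1+ cells and 3 higher in OCPs, with a median log2 fold change of 0.67. The intermediate filament gene desmin (Des) was at 12.4 and 14.99 against 1.82, 1.14 and 1.08 CPM (log2 fold change 3.34 ± 0.40). Tropomyosin Tpm2 was at 176 and 179 against 24.05, 21.9 and 20.8 CPM (log2 fold change 2.997 ± 0.12). Tnnt1, the slow troponin T gene, was at 5.35 and 7.19 against 0.284, 1.14 and 0.723 CPM (log2 fold change 3.14 ± 0.42). Ryr1, the calcium release channel gene, was at 44.9 and 40.5 against 12.8, 19.4 and 13.6 CPM (log2 fold change 1.49 ± 0.17). The 3 genes called higher in OCPs were low or not specific to skeletal muscle. Embryonic myosin heavy chain (Myh3) was at 0.0699 and 0.214 against 0.608, 0.856 and 0.832 CPM (log2 fold change -2.40 ± 0.51, -3.36 without S9-SCA-1+ replicate 3). Fast troponin T (Tnnt3) was at 0.1399 and 0.107 against 0.649, 0.808 and 0.868 CPM (log2 fold change -2.60 ± 0.48). Myl9, a myosin light chain of smooth muscle and other contractile cells, was at 5.70 and 6.59 against 13.1, 16.2 and 21.01 CPM (log2 fold change -1.45 ± 0.28). Tpm1, at 140 and 157 against 109.8, 129.6 and 121 CPM, was not called, nor was nebulin (Neb), at 1.68 and 2.21 against 1.05, 2.99 and 0.759 CPM. The highest adjusted p among the called genes of early muscle and contractile proteins named was 0.0024.

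Skeletal and limb mesenchyme factors lay on the other side. Of 23 tested transcription factors of skeletal progenitors, 15 were called higher in OCPs and 1 higher in S9-SCA-1+ cells, and their median log2 fold change was -2.07. Sox5, a partner of SOX9, was at 10.8 and 8.01 against 84.8, 106 and 100.02 CPM (log2 fold change -3.36 ± 0.19). Scx, a factor of tendon progenitors, was at 29.3 and 26.9 against 99.4, 117 and 118 CPM (log2 fold change -1.99 ± 0.17). Snai2, known from mesenchymal transitions, was at 7.66 and 7.98 against 23.03, 23.5 and 23.9 CPM (log2 fold change -1.59 ± 0.14). Tbx18, a T-box gene of proximal mesenchyme, was at 19.8 and 8.47 against 261, 297 and 316 CPM (log2 fold change -4.36 ± 0.28, -5.10 without S9-SCA-1+ replicate 2). For Sox9, Tbx18 and Sox5, S9-SCA-1+ replicate 2 lay above replicate 3. The 1 gene on the side of S9-SCA-1+ cells was Runx1, at 2.66 and 3.13 against 0.446, 0.903 and 1.34 CPM (log2 fold change 1.67 ± 0.34).

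Cartilage matrix genes were called higher in OCPs in 8 of 18 cases and higher in S9-SCA-1+ cells in 1, Epyc, which was below 0.25 CPM in all 5 libraries and not called without S9-SCA-1+ replicate 3, OCP replicate 2 or OCP replicate 3. Col2a1 differed by -2.60 ± 0.28. Col9a1 was at 17.3 and 15.2 against 196, 222 and 239 CPM (log2 fold change -3.75 ± 0.22). Its partner Col9a3 was at 0.769 and 0.712 against 10.1, 25.8 and 22.6 CPM (log2 fold change -4.71 ± 0.45). Hapln1, the link protein gene, was at 0.315 and 0.285 against 4.18, 4.23 and 2.68 CPM (log2 fold change -3.60 ± 0.38). Chondromodulin (Cnmd) had no count in S9-SCA-1+ cells and 1.62, 5.28 and 4.66 CPM in OCPs, at least 36.0-fold higher against a floor of 3 counts in a library. OCP replicate 1 was the lowest OCP library for Col2a1, Col9a1, Col9a3 and Cnmd. Acan and Matn1, genes of mature cartilage, were below 0.3 CPM in all 5 libraries.

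Of 47 tested factors of limb mesenchyme, 33 were called higher in OCPs and 2 higher in S9-SCA-1+ cells, with a median log2 fold change of -1.92. Tbx5, which specifies the forelimb, was at 23.9 and 14.8 against 215, 240 and 263 CPM (log2 fold change -3.63 ± 0.19). Tbx15 was at 34.03 and 20.8 against 549, 739 and 670.2 CPM (log2 fold change -4.57 ± 0.23). Shox2, needed for the upper arm, was at 52.4 and 33.3 against 674, 765 and 757 CPM (log2 fold change -4.09 ± 0.23). Hand2, a posterior factor, was at 23.1 and 17.3 against 184, 184 and 205 CPM (log2 fold change -3.24 ± 0.17), and Hoxd11, of the zeugopod, at 22.4 and 18.8 against 179, 183 and 218 CPM (log2 fold change -3.23 ± 0.16). The levels in S9-SCA-1+ cells were low but well above 3 counts in all 5 of these genes, with replicate 2 above replicate 3. The exceptions were Hoxa11, at 271 and 243 against 74.9, 59.6 and 68.6 CPM (log2 fold change 1.92 ± 0.17), and the homeobox gene Msx1, at 78.8 and 80.3 against 30.2, 19.6 and 18.9 CPM (log2 fold change 1.79 ± 0.18). In both all S9-SCA-1+ libraries lay above all OCP libraries. The largest adjusted p of the called skeletal and mesenchymal genes named was 0.0016, leaving out Epyc (0.068).

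**Figure D3:**
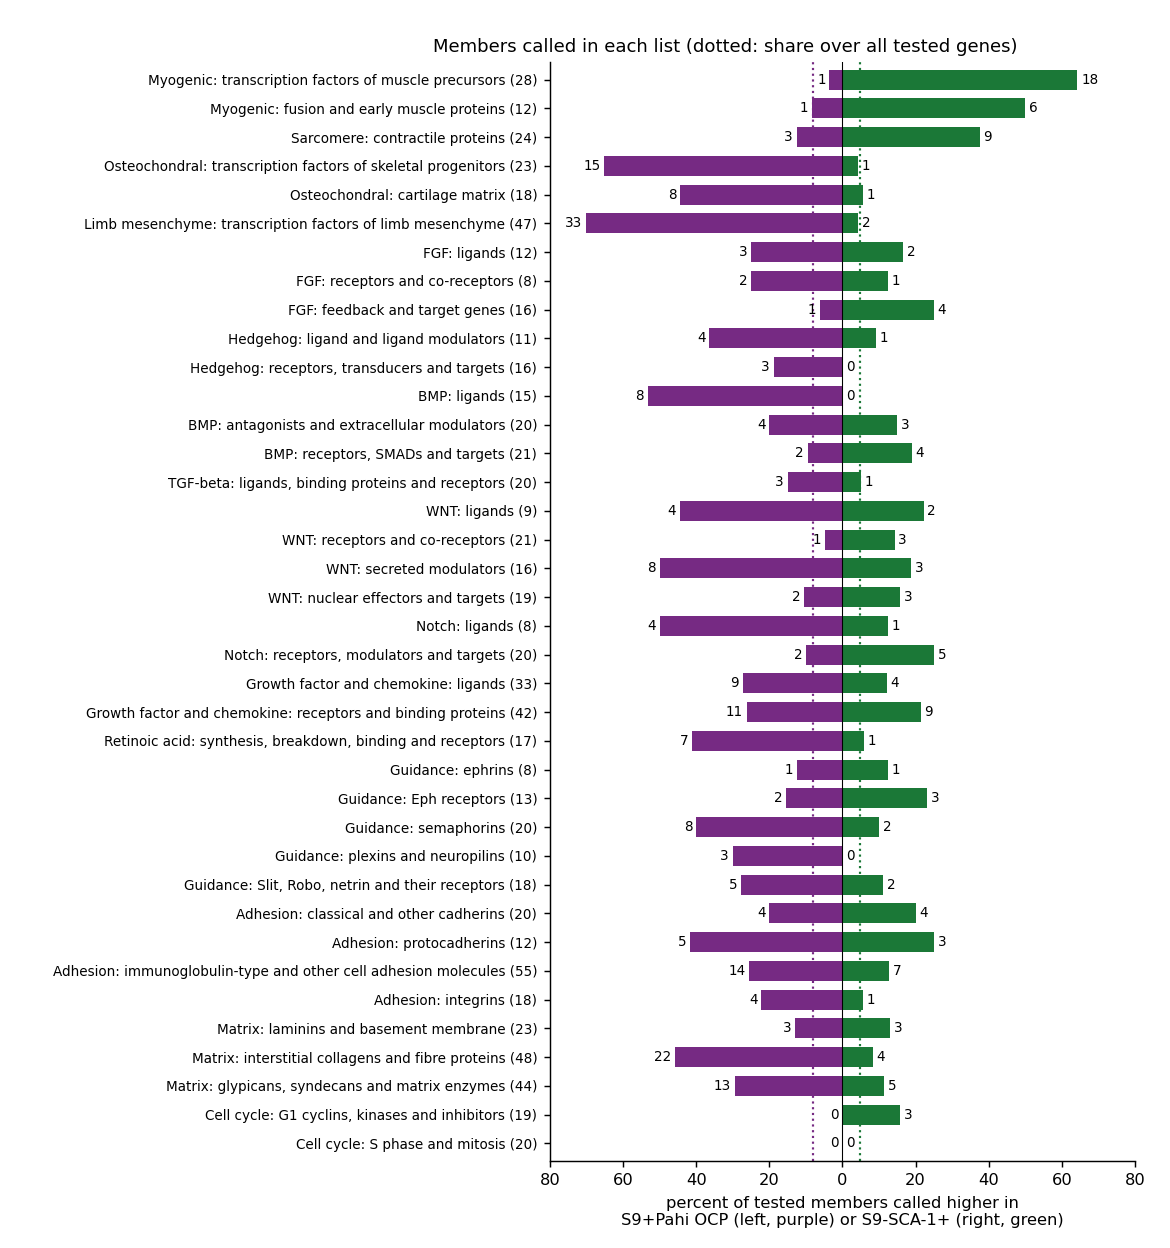
Share of the tested members of each list that was called higher in OCPs (purple, to the left) or higher in S9-SCA-1+ cells (green, to the right), in percent, with the number of members called at the end of each bar and the number tested in brackets. Dotted lines give the shares over all tested genes, 8.03% and 4.73%. BMP ligands and limb mesenchyme factors extend far to the left, myogenic factors far to the right, and S phase and mitosis genes have 0 called on either side.

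Several receptor transcripts were high in S9-SCA-1+ cells where the transcripts of their ligands were high in OCPs. MET is the receptor through which HGF releases and guides muscle precursors. Met (chr6:17463349-17573980) was at 719 and 659.6 against 6.69, 6.18 and 6.55 CPM (log2 fold change 6.73 ± 0.15, adjusted p = 1e-12). Hgf was at 3.81 and 2.78 against 54.3, 49.3 and 42.2 CPM (log2 fold change -3.88 ± 0.28, adjusted p = 1.3e-07). CXCR4 is a chemokine receptor of migrating cells, and CXCL12 is its ligand. Cxcr4 was at 81.03 and 91.9 against 0.406, 0.618 and 1.19 CPM (log2 fold change 6.83 ± 0.42, adjusted p = 3.1e-08, 7.42 without OCP replicate 3). Cxcl12 was at 50.4 and 41.9 against 239, 231 and 255 CPM (log2 fold change -2.39 ± 0.30, adjusted p = 2.7e-05). In both systems OCPs held the more ligand transcript and S9-SCA-1+ cells the more receptor transcript, with no overlap between libraries.

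Other systems were arranged differently. Gfra1, the receptor subunit that binds GDNF, was at 90.7 and 98.6 against 3.89, 5.89 and 3.98 CPM (log2 fold change 4.38 ± 0.20, adjusted p = 2.6e-09). Gdnf was also higher in S9-SCA-1+ cells, at 69.4 and 70.5 against 28.1, 27.6 and 28.4 CPM (log2 fold change 1.32 ± 0.51, adjusted p = 0.056). The call of Gdnf was lost without S9-SCA-1+ replicate 2 (adjusted p = 0.163), S9-SCA-1+ replicate 3 (0.183) or OCP replicate 3 (0.11) and in the DESeq2 test (0.21), with log2 fold changes of 1.31 to 1.34. For PDGF only the ligand genes can be read, since PDGFRα was a gate and the level of Pdgfra describes the sort. Pdgfa was at 11.8 and 12.4 against 1.54, 0.761 and 0.398 CPM (log2 fold change 3.75 ± 0.38, 4.41 without OCP replicate 1). Pdgfc was at 402 and 422 against 165, 154 and 182 CPM (log2 fold change 1.30 ± 0.10). Bdnf was higher in S9-SCA-1+ cells, at 29.7 and 33.6 against 5.47, 10.8 and 9.15 CPM (log2 fold change 1.90 ± 0.37). Its receptor gene Ntrk2 was higher in OCPs, the reverse of Met and Hgf.

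Of 33 tested ligands of the growth factor and chemokine list, 4 were called as higher in S9-SCA-1+ cells and 9 higher in OCPs, and of 42 receptors and binding proteins 9 and 11. Among ligands of OCPs, the chemokine gene Cxcl14 was at 1.75 and 1.175 against 38.2, 40.9 and 67.3 CPM (log2 fold change -5.06 ± 0.35). Angptl1, an angiopoietin-like gene, was at 1.08 and 0.819 against 10.6, 12.98 and 15.4 CPM (log2 fold change -3.77 ± 0.35). Vegfc, a growth factor of lymphatic vessels, was at 2.59 and 3.17 against 11.1, 14.9 and 12.5 CPM (log2 fold change -2.15 ± 0.23). Among receptors of OCPs, the fibrillar collagen receptor gene Ddr2 was at 32.03 and 19.8 against 363, 359 and 388 CPM (log2 fold change -3.83 ± 0.18). Lpar1, a receptor of lysophosphatidic acid, was at 45.5 and 42.4 against 372, 329 and 369 CPM (log2 fold change -3.02 ± 0.11). S1pr3, a receptor of sphingosine 1-phosphate, was at 49.03 and 40.4 against 271, 194 and 276 CPM (log2 fold change -2.47 ± 0.20). Igf2, an abundant growth factor transcript, was not called, at 3819.6 and 3267 against 7346, 4080.3 and 6163 CPM, nor was Ptn, the gene of pleiotrophin, at 316 and 302 against 782, 578 and 565 CPM. The highest adjusted p among the called genes in this list was 0.056, that of Gdnf, among those named.

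**Figure D4:**
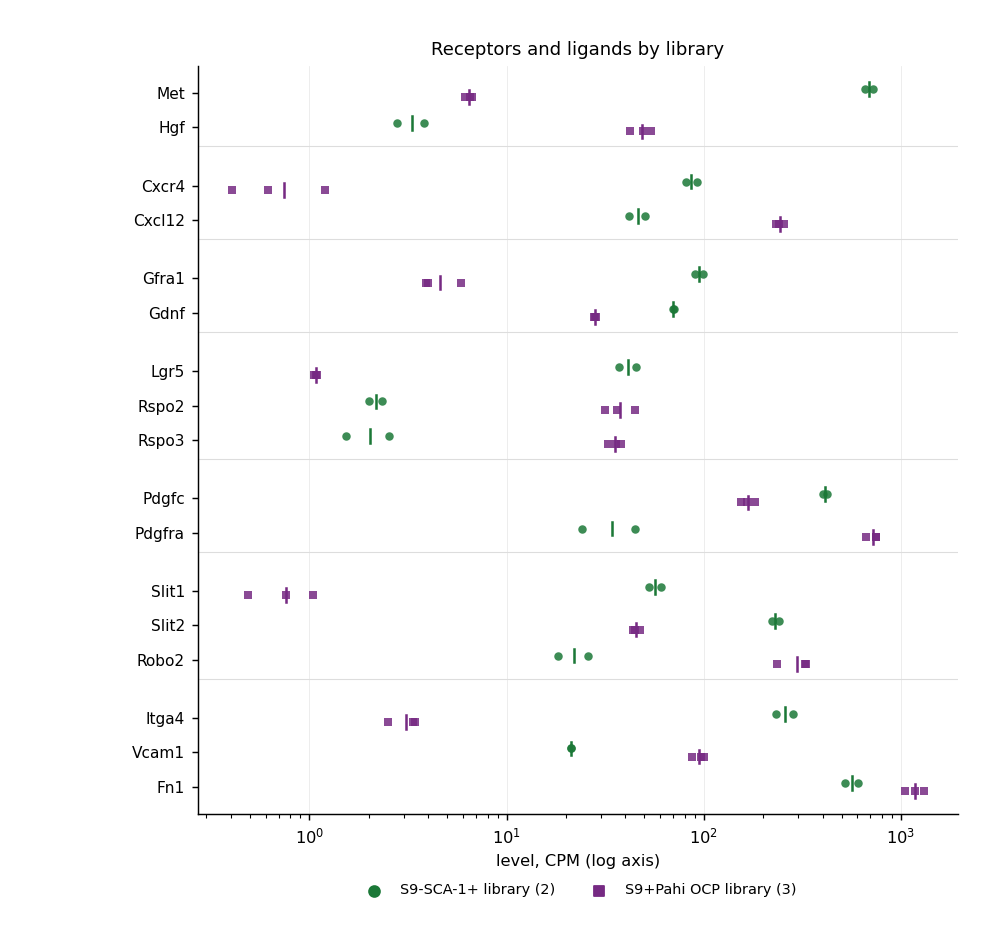
Level of receptor and ligand transcripts in each library, in CPM on a log axis, grouped by pathway. Green circles are the 2 S9-SCA-1+ libraries, purple squares the 3 OCP libraries, and vertical lines their means. The level of Pdgfra describes the sort, since PDGFRα was a gate. Met, Cxcr4, Gfra1, Lgr5 and Itga4 lie to the right in S9-SCA-1+ cells, and Hgf, Cxcl12, Rspo2, Rspo3, Robo2 and Vcam1 to the right in OCPs.

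FGF signalling, which keeps the distal bud growing and regulates myoblasts, was divided by receptor type. Fgfr4, a receptor typical of muscle progenitors, was at 11.2 and 12.6 against 2.76, 3.80 and 2.97 CPM (log2 fold change 1.91 ± 0.24). Fgfr2 was at 15.6 and 11.9 against 93.4, 119 and 110.1 CPM (log2 fold change -2.97 ± 0.27). Fgfr3 was at 5.95 and 5.59 against 15.98, 30.1 and 28.3 CPM (log2 fold change -2.10 ± 0.26). Fgfr1, at 267 and 239 against 538, 523 and 596 CPM, was just short of the fold limit and higher in OCPs, and passed it without S9-SCA-1+ replicate 2 (-1.21). Among 16 feedback and target genes, 4 were called as higher in S9-SCA-1+ cells and 1 higher in OCPs. Dusp4, a phosphatase that limits ERK, was at 228 and 171 against 36.5, 38.9 and 37.4 CPM (log2 fold change 2.41 ± 0.17). Etv4, a transcription factor induced by FGF, was at 92.95 and 96.3 against 24.6, 19.9 and 20.7 CPM (log2 fold change 2.12 ± 0.18). Myc was at 144 and 157 against 22.3, 30.8 and 25.9 CPM (log2 fold change 2.52 ± 0.26). The inhibitor gene Spry1 lay on the side of OCPs, at 11.1 and 11.8 against 29.8, 38.9 and 39.5 CPM (log2 fold change -1.66 ± 0.20). Dusp6, at 123 and 109 against 212, 229 and 206 CPM, was not called. Feedback genes of the pathway were thus found on both sides.

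Of 12 tested FGF ligands, 2 were called as higher in S9-SCA-1+ cells and 3 higher in OCPs (5 without OCP replicate 1). Fgf5, which restrains hair growth in the adult, was at 7.03 and 6.23 against 0.689, 0.570 and 0.542 CPM (log2 fold change 3.45 ± 0.43). Fgf8 was at 1.399 and 1.99 against 0.162, 0.428 and 0.145 CPM (log2 fold change 2.82 ± 0.71, 3.43 without OCP replicate 2). Fgf10, the mesenchymal signal to the limb ectoderm, was at 13.9 and 13.8 against 44.7, 36.9 and 40.2 CPM (log2 fold change -1.55 ± 0.16). Fgf7, its close relative, was at 0.245 and 0.107 against 0.730, 1.90 and 1.01 CPM (log2 fold change -2.73 ± 0.50, -3.43 without S9-SCA-1+ replicate 2). Fgf12, an intracellular member of the family, was at 0.455 and 0.570 against 1.99, 1.90 and 2.10 CPM (log2 fold change -1.95 ± 0.31). Fgf10 was the only one of these 5 above 10 CPM in either population.

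Of 27 tested hedgehog genes, 1 (3.7%) was called as higher in S9-SCA-1+ cells and 7 (25.9%) higher in OCPs. Over all tested genes the shares were 4.73% and 8.03%. The 1 was Shh, the ligand of the posterior signalling centre, at 1.64 and 2.42 against 0.203, 0.238 and 0.217 CPM (log2 fold change 3.19 ± 0.37, adjusted p = 1.5e-05). It was at 18.99, 13.6 and 15.5 CPM in the S9-Pαhi libraries described further down, so it was low in both populations compared. Cdon, a co-receptor gene, was at 139.8 and 125 against 377, 310.2 and 364 CPM (log2 fold change -1.403 ± 0.19). Scube1, whose family helps to release the ligand, was at 76.1 and 47.7 against 498, 571 and 501 CPM (log2 fold change -3.08 ± 0.20). Scube3 was at 33.3 and 25.4 against 184, 166 and 160.3 CPM (log2 fold change -2.54 ± 0.19). Adcy5, an adenylate cyclase, was at 0.490 and 0.677 against 3.41, 3.76 and 4.85 CPM (log2 fold change -2.77 ± 0.46). The core transducers differed by less than the fold limit. Smo was at 365 and 319 against 359.6, 290.1 and 347 CPM and overlapped. Gli3 was at 276 and 258 against 371, 345 and 339 CPM.

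BMP ligand transcripts were on the side of OCPs. Of 15 tested members of the list of ligands, 8 were called higher in OCPs and 0 higher in S9-SCA-1+ cells by edgeR and by DESeq2. The median log2 fold change was -1.40. Over all tested genes 8.03% and 4.73% were called. The list includes Bmp1, which encodes a protease and no ligand, and which was not called. At an unadjusted p under 0.05 in the edgeR test, 11 were higher in OCPs, Bmp1 among them, and 1 higher in S9-SCA-1+ cells. Without S9-SCA-1+ replicate 3 the number called higher in OCPs was 5. Bmp7 was at 33.96 and 27.4 against 80.4, 80.4 and 82.6 CPM (log2 fold change -1.403 ± 0.10). Bmp3 was at 0.734 and 0.392 against 2.88, 4.75 and 4.01 CPM (log2 fold change -2.77 ± 0.58). Gdf5, of joints, was at 0.560 and 0.249 against 4.22, 3.28 and 4.27 CPM (log2 fold change -3.26 ± 0.34, -3.95 without S9-SCA-1+ replicate 2). Gdf7 was at 0.1399 and 0.0712 against 1.46, 1.47 and 2.21 CPM (log2 fold change -3.96 ± 0.71). Bmp4, a main ligand of the bud, did not reach the fold limit, at 22.3 and 19.7 against 38.5, 32.1 and 34.4 CPM. Bmp5, at 8.29 and 7.98 against 4.10, 4.56 and 5.35 CPM, was the 1 higher in S9-SCA-1+ cells.

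By calls, BMP antagonists were divided, 3 higher in S9-SCA-1+ cells and 4 higher in OCPs of 20 (3 and 6 without OCP replicate 1). The list as a whole leaned to OCPs, with a median log2 fold change of -0.48. With an unadjusted p under 0.05 in the edgeR test, 12 of the 20 lay on the side of OCPs and 3 on the other. Fst, which binds activin and myostatin, was at 8.92 and 8.94 against 1.01, 2.23 and 2.06 CPM (log2 fold change 2.34 ± 0.32). Nog, the gene of noggin, was at 8.15 and 6.98 against 1.22, 2.80 and 2.57 CPM (log2 fold change 1.79 ± 0.31). On the side of OCPs, Chrdl1, a chordin-like gene, was at 15.04 and 16.4 against 41.5, 57.00 and 50.9 CPM (log2 fold change -1.66 ± 0.18). Bmper was at 0.105 and 0.356 against 2.92, 7.42 and 8.17 CPM (log2 fold change -4.72 ± 0.53, -4.10 without S9-SCA-1+ replicate 2, -5.81 without S9-SCA-1+ replicate 3). Smoc2 was at 0.874 and 0.855 against 9.12, 20.1 and 23.4 CPM (log2 fold change -4.33 ± 0.56). OCP replicate 1 was the lowest OCP library for all 3 of the latter. Each of the populations thus held the higher level of some antagonist transcripts, while Chrdl1 was above Fst and Nog in both populations.

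Receptors, SMADs and targets of BMP gave 4 called higher in S9-SCA-1+ cells (2 without OCP replicate 1) and 2 higher in OCPs of 21 (1 without S9-SCA-1+ replicate 2 or OCP replicate 3). With all libraries the shares were 19.0% and 9.52%, against 4.73% and 8.03% of all tested genes. ID proteins, which block bHLH factors, went both ways. Id2 was at 265 and 299.6 against 102, 127 and 123 CPM (log2 fold change 1.27 ± 0.13). Id1 was at 33.2 and 37.5 against 75.8, 85.4 and 96.7 CPM (log2 fold change -1.28 ± 0.14). Id4 was at 0.560 and 1.35 against 4.87, 7.94 and 5.93 CPM (log2 fold change -2.70 ± 0.42, -3.46 without S9-SCA-1+ replicate 3). The call of Id2 fell under the fold limit without S9-SCA-1+ replicate 3 and without OCP replicate 1 (1.178 and 1.179), and that of Id1 without S9-SCA-1+ replicate 2 (-1.19) and OCP replicate 3 (-1.17). Smad9, a mediator and target, was at 3.53 and 3.35 against 0.811, 0.333 and 1.19 CPM (log2 fold change 2.10 ± 0.45). In the TGF-beta list, 1 of 20 was called as higher in S9-SCA-1+ cells, the co-receptor gene Eng at 19.5 and 19.3 against 4.01, 5.47 and 4.85 CPM (log2 fold change 2.03 ± 0.18), and 3 higher in OCPs. Tgfb2 was at 27.9 and 24.5 against 90.4, 121 and 132 CPM (log2 fold change -2.12 ± 0.27). Tgfbr3, a co-receptor of it, was at 9.37 and 8.26 against 25.4, 25.1 and 25.5 CPM (log2 fold change -1.52 ± 0.18). The largest adjusted p of the called FGF, hedgehog, BMP and TGF-beta genes named was 0.0067.

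In WNT signalling, transcripts of secreted amplifiers and of a receptor for them were divided. R-spondins are secreted proteins that bind LGR receptors and keep Frizzled receptors at the surface. Rspo2 was at 2.34 and 1.99 against 44.6, 31.5 and 36.2 CPM (log2 fold change -4.11 ± 0.35). Rspo3 was at 2.52 and 1.53 against 38.00, 32.6 and 35.9 CPM (log2 fold change -4.13 ± 0.22), so both lay with Rspo1 on the side of OCPs. Lgr5, an R-spondin receptor gene, was at 45.5 and 37.1 against 1.05, 1.09 and 1.08 CPM (log2 fold change 5.25 ± 0.24). Lgr6 was at 2.24 and 1.92 against 0.203, 0 and 0.434 CPM (log2 fold change 3.18 ± 0.76, 4.22 without OCP replicate 3). Of 9 tested ligands 2 were called as higher in S9-SCA-1+ cells and 4 higher in OCPs. Wnt16 was at 46.97 and 38.3 against 0.487, 0.856 and 0.868 CPM (log2 fold change 5.85 ± 0.29). Wnt6, known from ectoderm, was at 1.43 and 1.03 against 0.0406, 0.0475 and 0.217 CPM (log2 fold change 3.46 ± 0.61, 4.68 without OCP replicate 3). Wnt5a, which acts on cell polarity and outgrowth, was at 38.1 and 28.3 against 132, 112 and 139 CPM (log2 fold change -1.95 ± 0.16). Wnt11 was at 5.91 and 4.31 against 25.2, 24.6 and 26.4 CPM (log2 fold change -2.31 ± 0.18).

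Of 16 secreted WNT modulators 8 were called higher in OCPs and 3 higher in S9-SCA-1+ cells. Sfrp1, which binds WNT proteins, was at 27.1 and 24.04 against 264, 252 and 284 CPM (log2 fold change -3.38 ± 0.47). Sfrp2 was at 45.4 and 37.9 against 126, 114 and 149 CPM (log2 fold change -1.64 ± 0.16). Wif1, another inhibitor, was at 4.83 and 3.92 against 16.9, 13.5 and 24.3 CPM (log2 fold change -2.06 ± 0.28). The inhibitor gene Dkk2 went the other way, at 49.8 and 50.99 against 6.002, 7.42 and 8.46 CPM (log2 fold change 2.79 ± 0.39). Notum, an enzyme that inactivates WNT proteins, did too, at 16.4 and 16.2 against 3.20, 3.47 and 2.50 CPM (log2 fold change 2.42 ± 0.26). Of 21 receptors and co-receptors, 3 were called as higher in S9-SCA-1+ cells (5 without S9-SCA-1+ replicate 3) and 1 higher in OCPs (2 without either S9-SCA-1+ library). The other 17 were not called, among them Fzd7 (171 and 151 against 217, 171 and 218 CPM) and Lrp6 (258 and 239 against 262, 294 and 284 CPM). Fzd10 was at 82.6 and 65.5 against 36.5, 16.8 and 21.5 CPM (log2 fold change 1.57 ± 0.23), and Fzd8 at 12.9 and 11.9 against 29.97, 42.4 and 46.1 CPM (log2 fold change -1.67 ± 0.24).

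Nuclear effectors and targets of WNT signalling were mostly not called, with 3 higher in S9-SCA-1+ cells and 2 higher in OCPs of 19. Besides Sp5, Tcf7, a nuclear partner of beta-catenin, was at 83.02 and 93.2 against 28.7, 18.5 and 22.6 CPM (log2 fold change 1.92 ± 0.17). Nkd2, an inhibitor induced by the pathway, was at 156 and 156 against 53.7, 58.5 and 59.3 CPM (log2 fold change 1.45 ± 0.15). Ctnnb1, the gene of beta-catenin, overlapped at 1495 and 1456 against 1666, 1308 and 1565 CPM. Both genes higher in OCPs were of the planar cell polarity branch. Prickle1 was at 8.01 and 8.05 against 49.5, 61.6 and 50.9 CPM (log2 fold change -2.75 ± 0.20). Prickle2 was at 6.02 and 4.49 against 21.1, 26.8 and 24.6 CPM (log2 fold change -2.20 ± 0.19). The highest adjusted p among the called WNT genes named was 0.0047.

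Notch signalling keeps muscle progenitors from differentiating. Of 8 tested ligands, 1 was called as higher in S9-SCA-1+ cells and 4 higher in OCPs (2 without S9-SCA-1+ replicate 3). The 1 was Dll1, a ligand made by differentiating myoblasts, at 7.94 and 7.69 against 0.203, 0.190 and 0.253 CPM (log2 fold change 5.14 ± 1.179, adjusted p = 0.0036). The DESeq2 test gave Dll1 no adjusted p. Dlk1, a non-canonical ligand gene, was at 43.7 and 43.8 against 303, 222 and 282 CPM (log2 fold change -2.62 ± 0.33). The other 3 called higher in OCPs were below 4 CPM in all 5 libraries. Of 20 receptors, modulators and targets, 5 were called as higher in S9-SCA-1+ cells and 2 higher in OCPs (1 without OCP replicate 2). Lfng, which modifies Notch receptors, was at 13.3 and 11.7 against 0.649, 0.998 and 0.651 CPM (log2 fold change 4.04 ± 0.29). Among targets, Nrarp was at 16.1 and 18.7 against 2.84, 2.90 and 4.99 CPM (log2 fold change 2.27 ± 0.23). Heyl was at 3.15 and 2.85 against 0.933, 0.856 and 0.9402 CPM (log2 fold change 1.71 ± 0.36). Hey1 was at 33.05 and 38.03 against 16.4, 13.3 and 12.8 CPM (log2 fold change 1.33 ± 0.17). At an unadjusted p under 0.05, 6 of the 20 were higher in S9-SCA-1+ cells and 7 higher in OCPs. Of the receptors, Notch2 was at 132 and 99.03 against 310.1, 312 and 355 CPM (log2 fold change -1.49 ± 0.14), and Notch3, at 494 and 432 against 430.1, 356 and 430.2 CPM, was not called.

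Retinoic acid, which patterns the proximal limb, gave a list with 7 of 17 called higher in OCPs and 1 higher in S9-SCA-1+ cells (2 without OCP replicate 1 or 3). Aldh1a2, which makes retinoic acid, was at 0.699 and 0.855 against 4.58, 8.51 and 9.15 CPM (log2 fold change -3.25 ± 0.54). Cyp26b1, which breaks it down, was at 47.4 and 38.7 against 216, 174 and 223 CPM (log2 fold change -2.25 ± 0.14). Dhrs3, which limits its synthesis, was at 3.85 and 3.17 against 21.4, 24.8 and 22.02 CPM (log2 fold change -2.69 ± 0.20). The receptor gene Rarg was at 63.6 and 51.99 against 346, 280.5 and 364 CPM (log2 fold change -2.51 ± 0.14), and Rarb, a receptor and target, at 5.11 and 5.52 against 35.9, 44.7 and 40.03 CPM (log2 fold change -2.92 ± 0.50). Genes of synthesis, breakdown and reception were therefore each represented on the side of OCPs. The exception was Rbp4, the retinol carrier, at 13.7 and 15.2 against 1.34, 0.666 and 1.63 CPM (log2 fold change 3.55 ± 0.32).

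Guidance genes gave 8 higher in S9-SCA-1+ cells and 19 higher in OCPs of 69. SLIT proteins repel cells that carry ROBO receptors. Slit1 was at 60.3 and 52.7 against 0.487, 1.05 and 0.759 CPM (log2 fold change 6.22 ± 0.32). Slit2 was at 239 and 222 against 43.6, 47.7 and 44.7 CPM (log2 fold change 2.35 ± 0.22). Slit3 went the other way, at 23.8 and 16.5 against 55.8, 54.1 and 60.6 CPM (log2 fold change -1.498 ± 0.14), so the family did not move together. Robo2 was at 25.9 and 18.3 against 235, 330.4 and 328 CPM (log2 fold change -3.75 ± 0.24). Robo1, at 209 and 184 against 216, 255 and 269 CPM, was not called. Ntn1, the gene of netrin, was at 7.41 and 6.66 against 162, 168 and 222 CPM (log2 fold change -4.71 ± 0.41). Dcc, a netrin receptor gene, was at 0.664 and 0.214 against 2.76, 4.56 and 3.40 CPM (log2 fold change -2.999 ± 0.45, -4.02 without S9-SCA-1+ replicate 2, -2.41 without S9-SCA-1+ replicate 3). Ligand and receptor of netrin were thus on the same side, while Slit1, Slit2 and Robo2 were on opposite sides.

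Semaphorins steer migrating cells and axons. Of 20 tested, 8 were called higher in OCPs and 2 higher in S9-SCA-1+ cells. Sema3d was at 2.03 and 1.175 against 16.8, 37.03 and 34.8 CPM (log2 fold change -4.20 ± 0.42). Sema6a was at 12.3 and 10.2 against 79.6, 115 and 115 CPM (log2 fold change -3.20 ± 0.20). Sema5a was at 36.2 and 26.7 against 189.7, 169.7 and 206 CPM (log2 fold change -2.58 ± 0.15). On the side of S9-SCA-1+ cells, Sema3c was at 20.9 and 24.2 against 4.66, 9.03 and 6.55 CPM (log2 fold change 1.75 ± 0.26). Sema6b was at 6.12 and 6.16 against 1.34, 1.14 and 0.976 CPM (log2 fold change 2.41 ± 0.24). Of their receptors, Nrp1 was at 20.5 and 16.6 against 82.7, 105 and 98.6 CPM (log2 fold change -2.36 ± 0.15). Plxna4 was at 3.71 and 1.74 against 32.8, 28.9 and 32.00 CPM (log2 fold change -3.51 ± 0.25, -4.16 without S9-SCA-1+ replicate 2), with S9-SCA-1+ replicate 2 above replicate 3. Ephrins and Eph receptors signal between cells in contact. Epha3 was at 61.9 and 70.2 against 9.73, 8.18 and 7.96 CPM (log2 fold change 2.94 ± 0.23). Epha5 was at 35.4 and 37.3 against 6.33, 7.18 and 6.55 CPM (log2 fold change 2.44 ± 0.25). Epha4, known from the guidance of limb nerves, was at 70.4 and 62.8 against 137, 181 and 189 CPM (log2 fold change -1.34 ± 0.16). Epha7 was at 37.9 and 31.4 against 101, 108 and 113 CPM (log2 fold change -1.63 ± 0.16). The receptors of class A were therefore found on both sides. Of the ephrins, Efna1 was at 9.02 and 10.9 against 3.57, 2.95 and 4.27 CPM (log2 fold change 1.46 ± 0.24), and Efnb3 at 56.4 and 45.8 against 227, 155 and 215 CPM (log2 fold change -1.96 ± 0.16).

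Adhesion genes with large differences stood beside core components that stayed under the fold limit. Of 105 tested, 15 were called as higher in S9-SCA-1+ cells and 27 higher in OCPs. Itga4 encodes the alpha4 integrin, whose ligands are VCAM1 and fibronectin. Itga4 was at 232 and 284 against 3.37, 3.42 and 2.50 CPM (log2 fold change 6.39 ± 0.22, adjusted p = 1.9e-10). Vcam1 was at 21.2 and 21.2 against 97.01, 87.3 and 99.9 CPM (log2 fold change -2.16 ± 0.09, adjusted p = 1.5e-09). Fn1, the gene of fibronectin, was at 607 and 518 against 1047, 1304 and 1174 CPM, short of the fold limit. Transcripts of Itga4 and Vcam1 were thus higher in different populations, while those of Fn1 were abundant in both. Of 18 integrins, Itga4 alone (5.56%) was called as higher in S9-SCA-1+ cells, and 4 (22.2%) were called higher in OCPs. Over all tested genes the shares were 4.73% and 8.03%. Itga8, which binds nephronectin, was at 3.85 and 3.17 against 26.1, 33.3 and 27.99 CPM (log2 fold change -3.05 ± 0.15). Itga11, a collagen receptor subunit, was at 2.31 and 1.25 against 5.56, 10.03 and 8.17 CPM (log2 fold change -2.15 ± 0.30). Itgb8 was at 1.504 and 1.46 against 4.70, 12.2 and 8.21 CPM (log2 fold change -2.49 ± 0.33). The common partner Itgb1, at 336 and 354 against 349, 335 and 357 CPM, overlapped between the populations.

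Cadherins and protocadherins join cells of a kind. Among 20 cadherins 4 were called in each direction, and among 12 protocadherins 3 were higher in S9-SCA-1+ cells and 5 higher in OCPs (3 without S9-SCA-1+ replicate 3). Besides Cdh15, Cdh8 was at 2.55 and 3.38 against 0.649, 0.666 and 1.34 CPM (log2 fold change 1.72 ± 0.46). Pcdh17 was at 226 and 212 against 7.54, 10.46 and 9.08 CPM (log2 fold change 4.60 ± 0.18). Pcdh19 was at 266 and 226 against 24.3, 17.97 and 20.6 CPM (log2 fold change 3.55 ± 0.17). These protocadherin transcripts were above 200 CPM in both S9-SCA-1+ libraries. On the side of OCPs, Pcdh18 was at 120.3 and 97.4 against 303, 332 and 384 CPM (log2 fold change -1.64 ± 0.14). Pcdh1 was at 0.420 and 0.320 against 4.66, 5.56 and 7.23 CPM (log2 fold change -3.96 ± 0.34). Cdh6 was at 6.54 and 5.41 against 18.5, 18.3 and 17.4 CPM (log2 fold change -1.59 ± 0.18). Cdh10 was at 0.664 and 0.320 against 3.28, 4.18 and 4.63 CPM (log2 fold change -3.02 ± 0.40, -3.63 without S9-SCA-1+ replicate 2). The widely used mesenchymal cadherins were not called. Cdh2 (N-cadherin) was at 219.7 and 206 against 134, 160.3 and 151 CPM, higher in both S9-SCA-1+ libraries. Cdh11 was at 229.8 and 246 against 361, 430.2 and 437 CPM, higher in all OCP libraries.

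Of 55 immunoglobulin-type and other adhesion molecules 7 were called as higher in S9-SCA-1+ cells and 14 higher in OCPs. Lrrn1, a leucine-rich repeat protein, was at 98.1 and 91.3 against 14.9, 17.3 and 19.4 CPM (log2 fold change 2.46 ± 0.14). Its relative Lrrn3 was at 7.66 and 7.51 against 1.176, 1.57 and 1.99 CPM (log2 fold change 2.25 ± 0.33). Islr2 was at 6.82 and 7.90 against 0.284, 0.523 and 0.723 CPM (log2 fold change 3.82 ± 0.46). Cntn3, a contactin known from neurons, was at 5.63 and 4.42 against 0.527, 0.903 and 0.398 CPM (log2 fold change 3.06 ± 0.36). Nectin1, of cell junctions, was at 67.5 and 58.4 against 20.6, 17.3 and 19.02 CPM (log2 fold change 1.73 ± 0.12). Neuronal adhesion genes were found among those of OCPs as well. Nlgn3, a neuroligin, was at 2.87 and 2.10 against 19.7, 30.6 and 32.4 CPM (log2 fold change -3.47 ± 0.29). Nrcam was at 0.595 and 0.392 against 3.89, 4.09 and 4.66 CPM (log2 fold change -3.08 ± 0.34). Negr1 was at 1.61 and 1.496 against 8.03, 11.7 and 11.8 CPM (log2 fold change -2.76 ± 0.36). Cd47, a signal against phagocytosis, was at 4.34 and 3.81 against 12.8, 11.8 and 12.3 CPM (log2 fold change -1.59 ± 0.14).

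**Figure D5:**
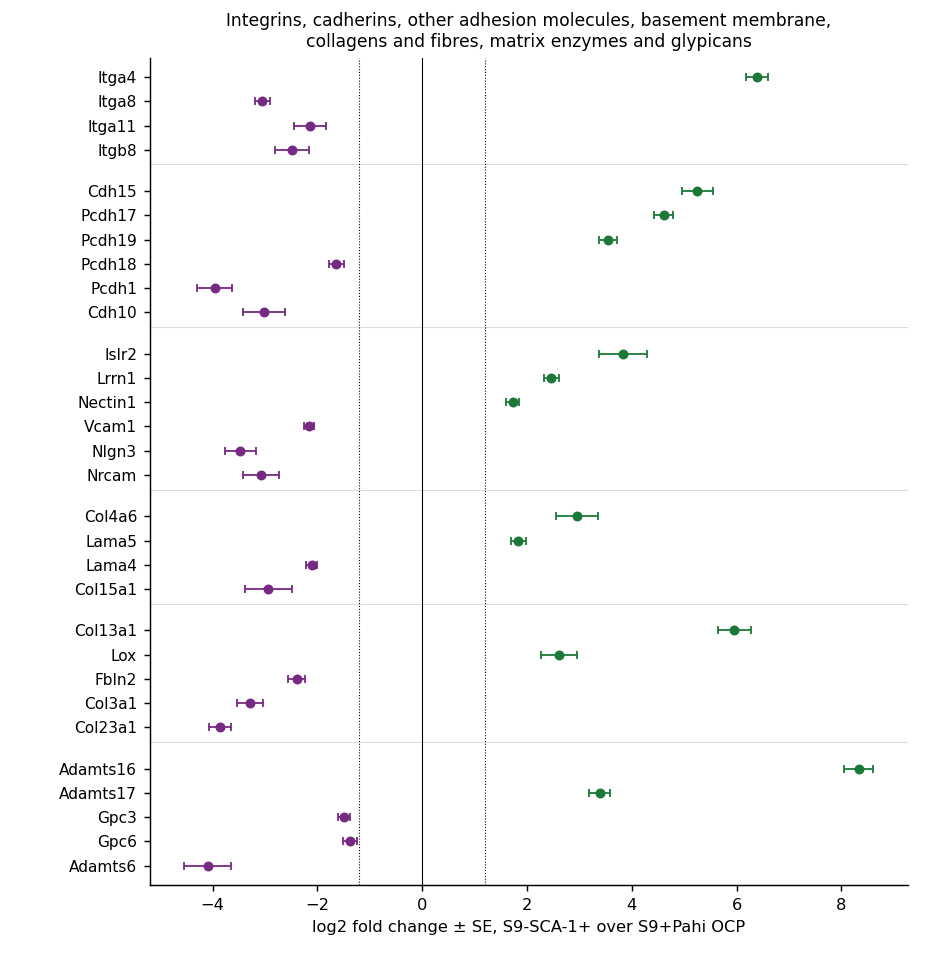
Log2 fold change with its SE for called adhesion and matrix genes named in the text, S9-SCA-1+ over OCP, from the fit over 14 libraries. Rows are grouped as integrins, cadherins and protocadherins, other adhesion molecules, basement membrane, collagens and fibre proteins, and matrix enzymes and glypicans, and dotted lines mark the fold limit of 1.2 on the log2 scale. Adamts16, Itga4 and Col13a1 lie furthest to the right, and Adamts6, Pcdh1 and Col23a1 furthest to the left.

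Interstitial matrix genes lay mostly on the side of OCPs, and basement membrane genes did not. Of 48 tested interstitial collagens and fibre proteins, 22 were called higher in OCPs and 4 higher in S9-SCA-1+ cells (2 without S9-SCA-1+ replicate 2), with a median log2 fold change of -1.08. Col3a1, of loose connective tissue, was at 125 and 96.6 against 1112, 1061 and 1087 CPM (log2 fold change -3.29 ± 0.25). Col23a1, a transmembrane collagen, was at 17.8 and 12.04 against 213, 222 and 218 CPM (log2 fold change -3.86 ± 0.20). Fbln2, the gene of fibulin 2, was at 41.4 and 29.9 against 172, 197 and 193 CPM (log2 fold change -2.40 ± 0.16). Mfap4, of elastic fibres, was at 68.3 and 58.01 against 219, 261 and 271 CPM (log2 fold change -1.99 ± 0.14). Prelp had no count in S9-SCA-1+ cells and 3.81, 3.57 and 4.85 CPM in OCPs, at least 38.1-fold higher by the same floor. On the other side, Col13a1, a transmembrane collagen of muscle cells, was at 31.7 and 33.6 against 0.487, 0.666 and 0.434 CPM (log2 fold change 5.96 ± 0.32). Lox, which crosslinks collagen, was at 18.5 and 17.1 against 1.78, 2.85 and 4.05 CPM (log2 fold change 2.61 ± 0.34).

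Laminins and basement membrane genes had 3 called in each direction of 23 and a median log2 fold change of 0.41. Lama5 was at 99.6 and 86.8 against 26.04, 27.8 and 24.8 CPM (log2 fold change 1.83 ± 0.14). Col4a6 was at 10.04 and 8.58 against 1.78, 0.666 and 1.12 CPM (log2 fold change 2.95 ± 0.40). Lama4, of vessels and mesenchyme, was at 14.8 and 15.5 against 68.5, 67.98 and 60.1 CPM (log2 fold change -2.11 ± 0.10). Col15a1 was at 0.525 and 0.463 against 2.72, 6.28 and 2.57 CPM (log2 fold change -2.94 ± 0.45). Dmd, the gene of dystrophin, which links the cytoskeleton of muscle to the matrix, was on the side of OCPs, at 7.48 and 7.30 against 30.98, 29.2 and 27.99 CPM (log2 fold change -1.99 ± 0.15). Col4a1, at 524 and 480.1 against 309, 276 and 280 CPM, was higher in S9-SCA-1+ cells by less than the fold limit.

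Among glypicans, syndecans and matrix enzymes, 5 of 44 were called as higher in S9-SCA-1+ cells and 13 higher in OCPs. Adamts17 was at 93.7 and 82.8 against 5.64, 8.84 and 10.7 CPM (log2 fold change 3.39 ± 0.20), beside its relative Adamts16. Adamts6, of the same protease family, was at 2.55 and 1.82 against 19.4, 54.5 and 38.8 CPM (log2 fold change -4.10 ± 0.44). Adam12, a protease of fusing myoblasts, was at 29.9 and 28.4 against 9.08, 12.2 and 10.96 CPM (log2 fold change 1.44 ± 0.22). Sulf1, which removes sulfate groups from heparan sulfate, was at 80.96 and 78.6 against 20.4, 35.1 and 30.7 CPM (log2 fold change 1.48 ± 0.30). Sulf2, at 1178 and 1059 against 760.3, 627 and 711 CPM, was not called. Gpc3, a heparan sulfate proteoglycan of the cell surface, was at 597 and 534 against 1790.5, 1383 and 1602 CPM (log2 fold change -1.49 ± 0.12). Gpc6 was at 55.4 and 47.1 against 137, 125 and 137 CPM (log2 fold change -1.38 ± 0.13). Sdc2, a syndecan gene, was at 18.6 and 17.4 against 46.5, 46.3 and 49.3 CPM (log2 fold change -1.39 ± 0.10). The core proteins named were higher in OCPs, and the enzyme genes were found on both sides. The largest adjusted p of the called Notch, retinoic acid, guidance, adhesion and matrix genes named was 0.0093.

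In the cell cycle 1 inhibitor stood out, and another went the other way by less than the fold limit. The latter, Cdkn1c, was at 684 and 678 CPM in S9-SCA-1+ cells against 1030, 1006 and 1031 CPM in OCPs. Cdkn1a, the gene of the cyclin-dependent kinase inhibitor p21, was at 62.7 and 64.3 against 1.42, 0.285 and 0.976 CPM (log2 fold change 6.11 ± 0.34, adjusted p = 1.3e-08). Of 20 genes of S phase and mitosis, 0 were called by edgeR and by DESeq2. At an unadjusted p under 0.05, 7 of the 20 were higher in S9-SCA-1+ cells and 2 higher in OCPs, and all log2 fold changes lay between -0.45 and 0.39. Mki67, a marker of cycling cells, was at 581 and 535 against 621, 1041 and 630 CPM. Mcm5, of the replication helicase, was at 432 and 436 against 415, 305 and 359 CPM. Of 19 G1 cyclins, kinases and inhibitors 3 were called as higher in S9-SCA-1+ cells and 0 higher in OCPs, and 1 each without OCP replicate 2. With no limit on the fold change, 5 were higher in S9-SCA-1+ cells and 6 higher in OCPs. Ccnd1, the gene of cyclin D1, was at 181 and 162 against 381, 299 and 415 CPM, lower in S9-SCA-1+ cells by less than the fold limit, which it passed without OCP replicate 2 (-1.22).

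Mesenchyme outside both gates shows which side departs from it. S9-Pαhi cells were Sox9-negative, SCA-1-negative and JAG1-negative with high PDGFRα, and had 3 libraries. Contrasts with them share libraries with the comparison above, so each gene is given with both. The first is S9-SCA-1+ over S9-Pαhi cells and the second OCPs over S9-Pαhi cells. Of 15125 tested genes, 1594 were called in the first and 732 in the second. The genes given are examples, and their numbers do not mirror these totals. Vcam1 had a log2 fold change of -2.15 ± 0.09, adjusted p = 1.4e-09, and of 0.01 ± 0.08, adjusted p = 0.95. Met had 7.32 ± 0.15, adjusted p = 5.1e-13, and 0.58 ± 0.14, adjusted p = 0.013. Fgfr2 had -2.73 ± 0.27, adjusted p = 3.8e-06, and 0.24 ± 0.21, adjusted p = 0.48. For these genes the S9-SCA-1+ cells stood further from S9-Pαhi cells. OCPs stood further from them for other genes. Cxcl12 had -0.32 ± 0.28, adjusted p = 0.46, and 2.07 ± 0.25, adjusted p = 0.0001. Foxc1 had -0.82 ± 0.38, adjusted p = 0.14, and 4.05 ± 0.31, adjusted p = 2.1e-06. Sema3d had -0.37 ± 0.46, adjusted p = 0.63, and 3.83 ± 0.35, adjusted p = 1e-05.

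Some genes on the side of S9-SCA-1+ cells were at a similar level in S9-Pαhi cells. Etv4 was at 71.5, 69.8 and 92.5 CPM in S9-Pαhi cells, with 0.28 ± 0.17, adjusted p = 0.28, and -1.84 ± 0.16, adjusted p = 8.5e-06. Tcf7 had 0.08 ± 0.17, adjusted p = 0.78, and -1.84 ± 0.16, adjusted p = 5.7e-06. Notum had 0.01 ± 0.25, adjusted p = 0.98, and -2.41 ± 0.25, adjusted p = 2.7e-05. Epha3 had 0.51 ± 0.22, adjusted p = 0.11, and -2.42 ± 0.22, adjusted p = 8.5e-06. These 4 genes were thus lower in OCPs than in both Sox9-negative populations, and a p above the threshold does not show that the latter were equal. For Col2a1 both populations were above S9-Pαhi cells, with 0.86 ± 0.25, adjusted p = 0.022, and 3.46 ± 0.25, adjusted p = 1.2e-06. Msx1 was below S9-Pαhi cells in both, with -1.84 ± 0.19, adjusted p = 5.1e-06, and -3.63 ± 0.18, adjusted p = 4e-08.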

How the data were processed

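RNA-seq was performed on sorted forelimb bud populations. The deposited table holds raw read counts per RefSeq gene, made by the authors with STAR alignment of single-end reads to mm10, 1 position kept for a read with several, and counting of read starts in exons with QuasR; use of strand was not given in the sources used here. Counts of 24454 genes in 14 libraries were analysed. One model with 5 population means was fitted to all 14 libraries, without imputation, in edgeR 4.0.16 (R 4.3.3; filterByExpr, TMM factors, quasi-likelihood F test), which left 15125 genes. A call needed a Benjamini-Hochberg adjusted p up to 0.1 and a log2 fold change of 1.2 or more in either direction, and SE was the size of the log2 fold change over the square root of F. CPM used TMM-scaled totals. RPKM used the deposited gene lengths. Floors cover counting error only, whereas SE also takes in the spread between libraries estimated in the fit. The study names its libraries biological replicates, from pools of embryos.

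Members and gene lists were chosen with earlier results of these data known, and no test over a list was made. Named were the 15 genes with the largest and the 15 with the smallest log2 fold change among called genes without overlap and with at least 5 CPM in the higher population (predicted genes left out), markers and sort genes, and in each list up to 5 called genes per direction by F and up to 4 not called by level; some genes that this rule names, members of the muscle precursor markers among them, are not reported here and were left out of the marker sum. Alternatives were DESeq2 size factors, plain totals, other filters, the DESeq2 1.42.0 Wald test, the 5 libraries alone, a replicate block, each library left out, other thresholds and thinned counts. Upstream windows were read from RefSeq tables with 250 bases before each start site.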

Additional observations from a re-analysis of the deposited data

How the results depend on the processing

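The number of genes called, 1930 (716 higher in S9-SCA-1+ cells and 1214 higher in OCPs), stayed within 1.5 times of itself under 14 of 15 alternatives, and between 1459 and 2146 under those that kept all libraries and the fold limit. Without the fold limit 7087 genes were called, 3359 on the side of S9-SCA-1+ cells and 3728 on that of OCPs. Leaving out each library in turn gave 1664 to 2176 genes, 631 to 785 higher in S9-SCA-1+ cells and 1033 to 1391 higher in OCPs. With 1 S9-SCA-1+ library left, that library is assumed to vary like the others. Without S9-SCA-1+ replicate 3, the library rich in red blood cell transcripts, 5 calls turned in direction (Acp5, Kcnn4, Klf1, Lyl1 and Slc30a10, named after their values were seen); under no other alternative did a call reverse. Of the other called genes named in the text, leaving out Krt18, 205 of 211 kept the call under each alternative that gave an adjusted p. Gdnf, Id1, Id2, Hoxa4, Epyc and Trp63 lost it under at least 1. Of the 31 genes named as not called, leaving out Bmp1 and Cdkn1c, 4 gained a call under an alternative that kept the fold limit. These were Meox2, Fgfr1 and Ccnd1 with 1 library left out and Pecam1 with thinned counts. Whether replicate numbers shared by the populations mark shared pools or days is not known. Deviations from the population means correlated with r of -0.0189 (replicates 2) and -0.00569 (replicates 3) across genes. With 2 S9-SCA-1+ libraries their deviations mirror each other, so these values are no separate checks and cannot decide it. The fit with the replicate number as a block called 1973 genes, 736 and 1237 by direction. Of these, 1875 were shared with the fit without it. With 2 S9-SCA-1+ libraries the spread rests largely on the other populations of the fit, and genes under about 0.143 CPM, which is 3 counts in the smallest library, were not measured well.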

Other observations

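Hox genes, read here by cluster after their values were seen, were not all on the side of OCPs. Of 9 tested Hoxb genes 5 were called higher in OCPs and 0 higher in S9-SCA-1+ cells, with a median log2 fold change of -1.80. Hoxc genes gave 4 of 7 higher in OCPs and a median of -2.31, and Hoxd genes 6 of 9 and a median of -1.90. Of the 11 tested Hoxa genes, Hoxa4 was the 1 called higher in OCPs, at 3.36 and 3.92 against 6.49, 10.6 and 8.35 CPM (log2 fold change -1.22 ± 0.30), under the fold limit without S9-SCA-1+ replicate 2 (-1.11) and without OCP replicate 2 (-1.03), and Hoxa11 the 1 called higher in S9-SCA-1+ cells, with a median of 0.25. Among the Hoxd genes Hoxd1 was the exception, at 3.43 and 4.17 against 0.324, 0.618 and 0.4701 CPM (log2 fold change 3.01 ± 0.55).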
